A study of Mus musculus with 18 samples.

Results

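The livers of exercised mice on 2 diets were compared by small RNA sequencing. The comparison takes 6 of the 18 libraries of the series, the 3 of the group HF+Ex and the 3 of the group LF+Ex, as their labels name them, and all miRNAs with at least 5 RPM (reads scaled to the library total) in at least 3 of the 18 libraries. These were 351 of the 758 mature mouse miRNAs in the table, and the other 407 were not tested. The labels do not spell out the group names, which are read here as high-fat (HF) and low-fat (LF) diet with exercise (Ex). All mice were wild-type C57BL/6J, an inbred strain, began their regimen at 5 weeks and were sampled at 62 weeks of age. The exercised groups thus share strain, duration, age and Ex, and differ in diet. The sources used here give neither the kind of exercise nor the sex of the mice. The other 4 groups, used for comparison, were LF and HF with neither addition, and LF+CR and HF+CR, where CR is read as calorie restriction. The labels do not state whether the 3 libraries of each group are from different mice; the p-values therefore reflect the spread among these libraries alone, which could be technical.

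A miRNA is an RNA of about 22 bases that guides the Argonaute protein to messenger RNAs, mainly by pairing of its bases 2 to 8, the seed, and lowers their translation or stability. Hepatocytes express very high levels of miR-122, and several liver miRNAs act on genes of cholesterol and lipid handling. Small RNA taken from whole liver also holds the miRNAs of Kupffer cells and other leukocytes, endothelium, stellate cells and bile ducts. In such bulk samples fewer cells of a type and less RNA per cell cannot be told apart.

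The mature sequences of the miRNAs on which the results turn are given here because members of a family can share a seed and still differ in level. Sequences are from RefSeq (GRCm38.p6), 5′ to 3′, with the seed in capitals. Of the 29 miRNAs called, 26 matched a RefSeq mature sequence by name, as did 288 of the 351 tested.
miR-148a-3p: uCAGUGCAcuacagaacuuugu
miR-148b-3p: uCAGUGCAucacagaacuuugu
miR-152-3p: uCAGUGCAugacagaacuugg
miR-17-5p: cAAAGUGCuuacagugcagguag
miR-20a-5p: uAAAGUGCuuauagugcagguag
miR-19b-3p: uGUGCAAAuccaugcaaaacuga
miR-130a-3p: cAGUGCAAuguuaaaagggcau
miR-592-5p: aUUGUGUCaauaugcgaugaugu
miR-676-3p: cCGUCCUGagguuguugagcu
let-7a-5p: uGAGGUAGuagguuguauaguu
let-7b-5p: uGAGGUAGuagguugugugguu
let-7c-5p: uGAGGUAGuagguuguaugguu
miR-223-3p: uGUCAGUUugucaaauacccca
miR-155-5p: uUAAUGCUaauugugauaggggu
miR-205-5p: uCCUUCAUuccaccggagucug
miR-33-5p: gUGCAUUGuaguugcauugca

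With positions counted from 1 at the 5′ end and the first-named miRNA's base first, miR-148a-3p and miR-148b-3p differ by C9U and U10C. miR-148a-3p and miR-152-3p differ by C9U, U10G and U20G, and miR-152-3p, with 21 bases against 22, lacks the last base. miR-17-5p and miR-20a-5p differ by C1U and C12U. let-7a-5p differs from let-7c-5p by A19G alone and from let-7b-5p by A17G and A19G. How the authors assigned reads that match several miRNAs is not given in the sources used here, so levels of such close relatives are less certain than those of single-copy miRNAs.

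Depth, in megareads on listed miRNAs (M), was 7.12, 10.5 and 8.03 M in LF+Ex 1 to 3 and 2.38, 7.25 and 8.69 M in HF+Ex 1 to 3. HF+Ex 1 was the shallowest library of the series. It also stood apart in 4 entries that resemble fragments of other RNAs, which summed to 573 RPM there and to between 48.6 and 129 RPM in the other 5 libraries. The defining marker of hepatocytes, miR-122-5p, was the most abundant miRNA in each library, at 226842, 278898 and 206593 RPM in LF+Ex and 242405, 234912 and 267972 RPM in HF+Ex. Its groups overlapped, with a log2 fold change of 0.07 (95% interval -0.21 to 0.36, adjusted p = 0.715). Fold changes here are HF+Ex minus LF+Ex on the log2(RPM + 1) scale, with limma's adjusted p over the 351 miRNAs, and miRNAs with an adjusted p under 0.05 are named as called.

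HF+Ex livers differed from LF+Ex livers in 29 miRNAs (8.26% of those tested). The 21 that were higher in HF+Ex (5.98%) included 3 leukocyte miRNAs, 3 let-7 miRNAs, both arms of miR-676, both arms of miR-501, and miR-205-5p. The 8 that were lower (2.28%) were miR-148a-3p, 3 miRNAs of the miR-17-92 cluster, miR-130a-3p, miR-592-5p and both arms of miR-1948. Without adjustment, 102 miRNAs had a p under 0.05 (29.1%). In all 29 the 3 HF+Ex libraries lay wholly above or wholly below the 3 LF+Ex libraries, as they did for 147 of all 351 (41.9%), 114 of them higher (32.5%) and 33 lower (9.4%).

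The balance between higher and lower depends on the scale. The fold change was above 0 for 234 of the 351 miRNAs (66.7%), and its median was 0.22. Rescaling RPM by median-of-ratios size factors moved the median by -0.22, to -0.00, and low miRNAs by less, and then 34 miRNAs were called, 14 higher and 20 lower. Of the 29, 21 were also called on that scale; the 8 that were not were all among the higher ones and are named where they are described. Only miR-148a-3p and miR-676-3p stayed called when any 1 of the 6 libraries was left out, and 12 of the 29 were not called in any of those 6 fits. Without HF+Ex 1, 7 miRNAs were called, 1 higher and 6 lower.

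**Figure D1:**
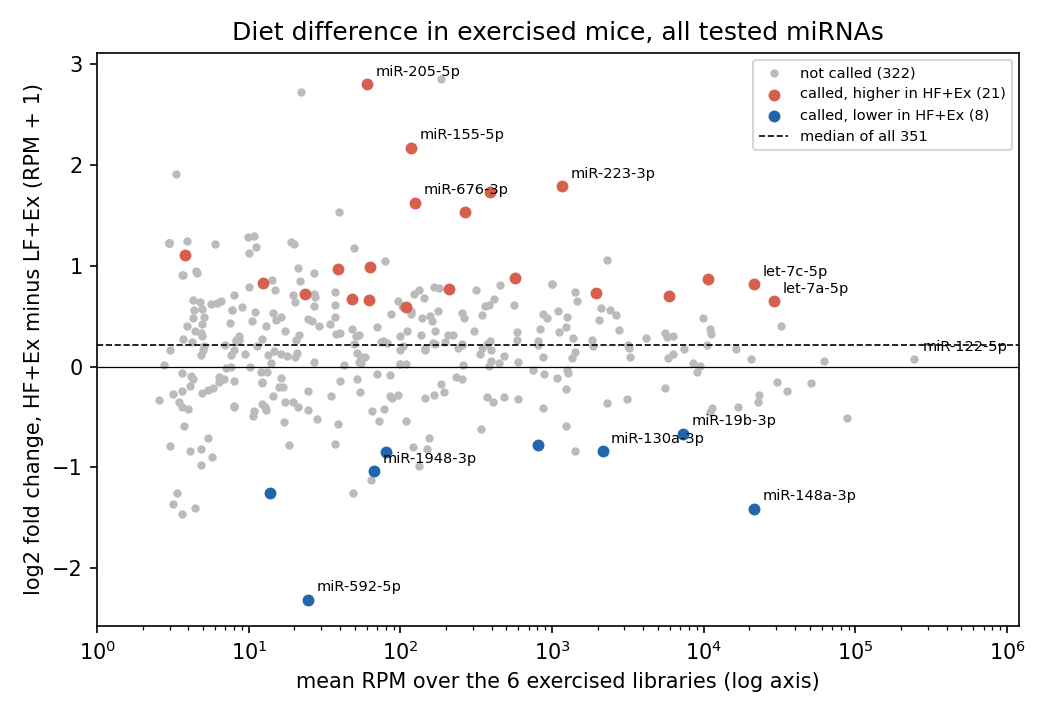
Each point is 1 of the 351 tested miRNAs; the horizontal axis is the mean RPM over the 6 exercised libraries (log axis) and the vertical axis the log2 fold change, HF+Ex minus LF+Ex. The 21 orange points (called higher) and 8 blue points (called lower) span low and high levels, miR-122-5p lies near 0, and the dashed line at 0.22 is the median of all.

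miR-148a-3p was the abundant miRNA that differed most. It is a liver miRNA known for repressing the low-density lipoprotein receptor and the cholesterol exporter ABCA1. Its level was 34248, 31348 and 28262 RPM in LF+Ex 1 to 3, and 13651, 11113 and 10722 RPM in HF+Ex 1 to 3. The lowest LF+Ex library was far above the highest HF+Ex library. The mean was 2.64-fold lower in HF+Ex, with a log2 fold change of -1.41 (SE 0.22, adjusted p = 0.00141). It remained called in all 16 alternatives, with log2 fold changes between -1.63 and -1.34.

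The gene, Mir148a, lies on the minus strand of chr6:51269812-51269910 (GRCm38.p6), with no annotated host gene. The other arm of the same precursor, miR-148a-5p, was at 90.8, 90.2 and 79.1 RPM in LF+Ex and 59.8, 87.0 and 104.5 RPM in HF+Ex. These groups overlapped, with a fold change of -0.08 (95% interval -0.63 to 0.46, adjusted p = 0.841). A difference between the arms was not itself tested.

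The 2 relatives of miR-148a-3p that carry the same seed come from other genes. miR-152-3p, from an intron of Copz2, was at 1755, 1265 and 2054 RPM in LF+Ex and 1950, 2243 and 1801 RPM in HF+Ex (log2 fold change 0.26, adjusted p = 0.419). miR-148b-3p, from an intron of Copz1, had a fold change of -0.30 (adjusted p = 0.464). Neither was called and both overlapped between groups. miR-148a-3p alone made up 93.7%, 94.9% and 91.3% of the RPM with this seed in LF+Ex, and 84.6%, 80.7% and 83.3% in HF+Ex. The summed seed family therefore went from 36550, 33034 and 30950 RPM to 16133, 13779 and 12867 RPM, a log2 fold change of -1.24 (SE 0.19, adjusted p = 0.00105 over 231 seeds).

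Summing RPM over miRNAs with the same seed was done for all 288 matched miRNAs, which have 231 seeds. The sums were tested on RPM alone, without the alternatives run for single miRNAs. Of these sums 27 were called (11.7%), 22 of them higher in HF+Ex. Among the 34 seeds shared by 2 or more miRNAs, 6 were called (17.6%), 3 of them higher. The 3 lower sums were those of miR-148 and miR-152, of miR-19a and miR-19b (-0.65, adjusted p = 0.0162), and of miR-130a, miR-130b and miR-301a (-0.74, adjusted p = 0.0163). The 3 higher sums were those of let-7 with miR-98 (0.50), of miR-10a and miR-10b (0.73, adjusted p = 0.0339), and of miR-30a-3p and miR-30e-3p (0.47, adjusted p = 0.0469).

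The miR-17-92 cluster is a set of miRNAs cut from 1 transcript, Mir17hg, and is known for promoting cell growth and survival. Mir17, Mir20a and Mir19b-1 lie on the plus strand at chr14:115043671-115043754, chr14:115044157-115044263 and chr14:115044305-115044391 (GRCm38.p6), all exonic in Mir17hg. A second copy of miR-19b, Mir19b-2, lies at chrX:52741983-52742066.

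miR-17-5p was at 103.3, 106.8 and 97.9 RPM in LF+Ex and 73.2, 52.0 and 47.9 RPM in HF+Ex, a log2 fold change of -0.84 (SE 0.17, adjusted p = 0.0127). miR-20a-5p, which shares its seed, was more abundant, at 1039, 921 and 1094 RPM in LF+Ex and 748, 534 and 515 RPM in HF+Ex (-0.78, SE 0.19, adjusted p = 0.0260). miR-19b-3p was at 8882, 8408 and 9465.5 RPM in LF+Ex and 4639, 6523 and 5872 RPM in HF+Ex (-0.66, SE 0.14, adjusted p = 0.0133). In each case the 3 HF+Ex libraries were all lower, and HF+Ex 1 was the highest of the 3 for miR-17-5p and miR-20a-5p and the lowest for miR-19b-3p.

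The rest of the cluster was not called. miR-19a-3p had a log2 fold change of -0.58 (adjusted p = 0.0697), miR-18a-5p of -0.31, miR-17-3p of -0.28 and miR-92a-3p of 0.21. In the list of this cluster and its relatives at other loci, 7 of 16 tested members were above 0 (66.7% of all miRNAs were). The median was -0.30 against 0.22 over all miRNAs. In the list 3 were called lower and none higher, where 2.28% and 5.98% of all miRNAs were. After rescaling, 3 of 16 were above 0 and 6 were called lower, against 173 and 20 of all 351. Of the relatives, miR-106b-5p was at -0.54, miR-93-5p at 0.19, miR-25-3p at 0.26 and miR-106b-3p at 0.93. The sum over the 5 miRNAs with the seed of miR-17-5p was 4347, 3697 and 4696 RPM in LF+Ex and 4303, 4255 and 3869 RPM in HF+Ex, with a fold change of -0.03 (adjusted p = 0.899): the fall of miR-17-5p and miR-20a-5p was not seen in the sum of their seed family. The largest part of this sum was miR-93-5p, from another locus. Its mean share of the listed RPM was 0.309% in LF+Ex and 0.350% in HF+Ex. That of miR-20a-5p was 0.105% and 0.0618%, and that of miR-17-5p 0.0106% and 0.00596%.

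miR-130a-3p, which targets the adipogenic factor PPARγ and is found in endothelium and liver, was at 3032, 2791 and 2451 RPM in LF+Ex and 1869, 1432 and 1351 RPM in HF+Ex. Its groups were well apart, with a log2 fold change of -0.84 (SE 0.18, adjusted p = 0.0127). Mir130a lies at chr2:84741115-84741178 on the minus strand, with no annotated host.

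miR-592-5p had the largest decrease of the called miRNAs. It was at 46.5, 45.0 and 30.9 RPM in LF+Ex and at 16.7, 4.68 and 4.68 RPM in HF+Ex, 4.70-fold lower in the mean, with a log2 fold change of -2.31 (SE 0.49, adjusted p = 0.0127). The values in HF+Ex rest on 41, 35 and 42 reads. Its gene, Mir592, overlaps an exon of the glutamate receptor gene Grm8 on chr6:27936655-27936750.

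Both arms of miR-1948, a rodent miRNA, were lower in HF+Ex. miR-1948-3p was at 102.5, 98.3 and 71.2 RPM in LF+Ex and 42.3, 47.9 and 39.7 RPM in HF+Ex (-1.04, SE 0.25, adjusted p = 0.0260). miR-1948-5p was at 20.9, 19.2 and 18.9 RPM in LF+Ex and 9.35, 8.02 and 5.91 RPM in HF+Ex (-1.26, SE 0.33, adjusted p = 0.0380). The groups of neither arm overlapped, but the call for miR-1948-3p was kept in 1 of the 6 fits that left out a library, and that for miR-1948-5p in none.

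**Figure D2:**
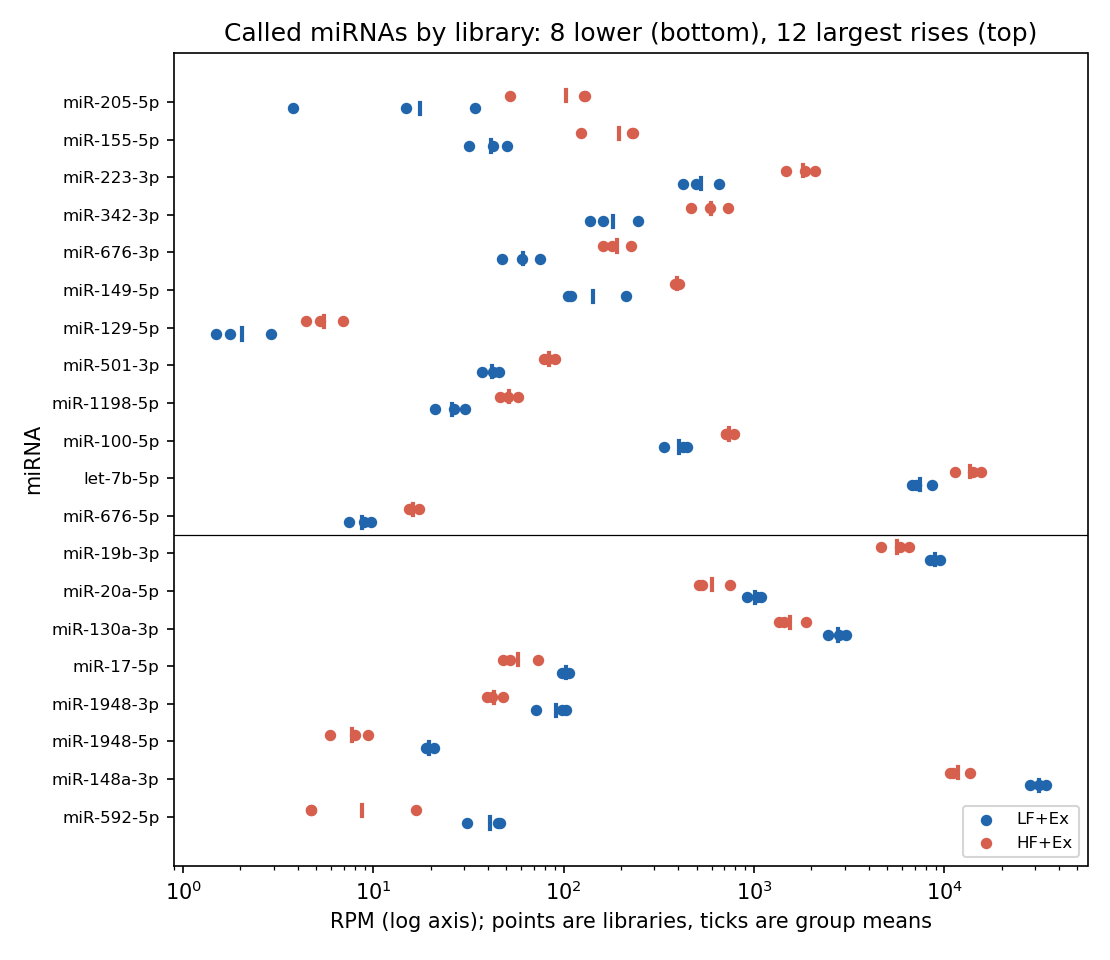
RPM on a log axis for the 8 miRNAs called lower and the 12 with the largest called increase, 1 row each; blue points are the 3 LF+Ex libraries, orange points the 3 HF+Ex libraries, and short bars the group means. In each row the 2 colours do not overlap, from miR-148a-3p, at 10722 RPM or more, to miR-129-5p, at 6.91 RPM or less.

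miR-676-3p was the only miRNA besides miR-148a-3p called in all 16 alternatives. It lies in an intron of Eda, the ectodysplasin gene, at chrX:100381097-100381185 on the plus strand. Its level was 47.6, 60.6 and 75.3 RPM in LF+Ex and 227.2, 180.3 and 161.7 RPM in HF+Ex. Every HF+Ex library was more than double every LF+Ex library; the mean was 3.10-fold higher, with a log2 fold change of 1.63 (SE 0.24, adjusted p = 0.00141, at most 0.0130 over the alternatives). The opposite arm, miR-676-5p, moved the same way at a lower level: 8.97, 7.41 and 9.74 RPM in LF+Ex and 15.4, 17.4 and 15.6 RPM in HF+Ex (0.83, SE 0.24, adjusted p = 0.0458). That call was lost on rescaling (adjusted p = 0.101) and was kept in none of the 6 fits that left out a library.

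The let-7 family restrains growth and, when raised in mice, impairs glucose handling. let-7c-5p was at 13551, 17783 and 15429 RPM in LF+Ex and 30237, 23437 and 28797 RPM in HF+Ex, a log2 fold change of 0.82 (SE 0.17, adjusted p = 0.0127). let-7b-5p was at 6773, 8574 and 7132 RPM in LF+Ex and 15547, 11420 and 14148 RPM in HF+Ex (0.87, SE 0.21, adjusted p = 0.0260). let-7a-5p was at 19725, 26177 and 21897 RPM in LF+Ex and 35965, 30883 and 39071 RPM in HF+Ex (0.65, SE 0.14, adjusted p = 0.0127). All 3 rose without overlap; on rescaling let-7b-5p and let-7c-5p were still called (adjusted p = 0.0495 and 0.0351) and let-7a-5p was not (0.42, adjusted p = 0.0955). Without HF+Ex 1 none of the 3 was called.

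All 9 tested let-7 miRNAs, miR-98-5p included, had values above 0, and 7 did after rescaling. Their median was 0.40 against 0.22 for all miRNAs. let-7f-5p, the most abundant, had a value of 0.40 (adjusted p = 0.0516), and let-7i-5p, let-7d-5p, let-7e-5p, miR-98-5p and let-7g-5p had values from 0.51 down to 0.08. The summed RPM with the let-7 seed took 9.66%, 12.03% and 11.3% of the listed RPM in LF+Ex and 15.8%, 14.2% and 16.7% in HF+Ex. Its log2 fold change was 0.50 (SE 0.10, adjusted p = 0.00918), so the share of this family was larger in every HF+Ex library.

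let-7b-5p and 1 copy of let-7c-5p, Mirlet7b and Mirlet7c-2, are neighbours in the RNA gene Lncppara on chromosome 15, at chr15:85707319-85707403 and chr15:85706603-85706697. The other copy, Mirlet7c-1, lies in an intron of Mir99ahg at chr16:77599657-77599750, next to Mir99a. The miR-99 and miR-100 miRNAs, which share a seed, repress the growth kinase mTOR. miR-99a-5p was at 5718, 5731 and 5302 RPM in LF+Ex and 6473, 7569 and 6686 RPM in HF+Ex (0.31, adjusted p = 0.147), which was not called although its groups did not overlap. miR-100-5p was at 443, 425 and 337 RPM in LF+Ex and 715, 712 and 785 RPM in HF+Ex (0.88, SE 0.26, adjusted p = 0.0474). miR-125b-5p, which has copies near miR-100 on chromosome 9 and in Mir99ahg, was at 4917, 4330 and 4251 RPM in LF+Ex and 8303.5, 6885 and 6813 RPM in HF+Ex (0.70, adjusted p = 0.0411). The calls of miR-100-5p and miR-125b-5p were kept in none of the 6 fits that left out a library, and that of miR-125b-5p was lost on rescaling (adjusted p = 0.0620).

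In the leukocyte and Kupffer cell list 3 of 10 tested members were called higher (5.98% of all miRNAs were), and 7 were not called. All 10 were above 0 on both scales, with a median of 1.23 (1.05 rescaled), and 8 were higher without overlap, as were 32.5% of all miRNAs. miR-223-3p, the myeloid miRNA most abundant in neutrophils, was at 498, 424 and 653 RPM in LF+Ex and 2087, 1478 and 1854 RPM in HF+Ex. All HF+Ex libraries were more than double the highest LF+Ex library (log2 fold change 1.79, SE 0.49, adjusted p = 0.0411).

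miR-155-5p, induced in activated macrophages and lymphocytes, was at 31.7, 42.5 and 50.2 RPM in LF+Ex and 228.4, 124.0 and 230.8 RPM in HF+Ex (2.17, SE 0.54, adjusted p = 0.0264). miR-342-3p, from an intron of Evl and enriched in lymphocytes and monocytes, was at 162, 138 and 245 RPM in LF+Ex and 731, 469 and 590.0 RPM in HF+Ex (1.73, SE 0.50, adjusted p = 0.0419). In both, HF+Ex 2 was the lowest of the 3 HF+Ex libraries and still lay above all LF+Ex libraries. The members not called were miR-150-5p, a lymphocyte miRNA (1.53, adjusted p = 0.0786), miR-223-5p (1.25), miR-342-5p (1.22), miR-146b-5p (1.18), miR-142-3p (0.56), miR-142-5p (0.52) and miR-146a-5p (0.49).

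The summed RPM of the leukocyte list was 3201, 3222 and 4366 in LF+Ex and 7933, 5624 and 6738 in HF+Ex, so no HF+Ex library was as low as any LF+Ex library. miR-223-3p and miR-342-3p were called in none of the 6 fits that left out a library and miR-155-5p in 2 of them. Without HF+Ex 1 no member was called, with all 10 still above 0 and a median of 1.03. Whether more leukocytes or more of these miRNAs per cell lie behind the difference was not tested.

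The lists of other cell types are given beside this. The hepatocyte list had 4 of 13 members above 0, 2 after rescaling, with a median of -0.17. Its 1 call was miR-148a-3p, and 6 of the 13 did not overlap and were lower, against 9.4% of all miRNAs. Its sum was 404686, 433094 and 374850 RPM in LF+Ex and 362011, 368925 and 396031 RPM in HF+Ex. The endothelial list (5 of 5 above 0, 3 after rescaling, median 0.46) summed to between 17548 and 19906 RPM in LF+Ex and between 21477 and 24456 RPM in HF+Ex, with no call. The stellate and mural cell list (8 of 10 above 0, 7 after rescaling, median 0.38) also had no call. The erythroid list had 1 of 4 members above 0, none after rescaling and no call, and sums between 3383 and 6858 RPM in LF+Ex and between 3474 and 4840 RPM in HF+Ex. The 2 tested members of the pancreas list, miR-216a-5p and miR-375-3p, summed to 20.5, 5.28 and 3.73 RPM in LF+Ex and 2.85, 5.08 and 3.57 RPM in HF+Ex, with no call. The acinar miRNA miR-217-5p was also highest in LF+Ex 1, at 3.80 RPM, and was listed at 0 in HF+Ex 1 and HF+Ex 3, and miR-216a-3p was listed at 0 in all 6. The 2 tested members of the muscle list had no call and summed to at most 45.7 RPM, in LF+Ex 1.

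The epithelial list held the largest called increase, and its other members lay below 0. miR-205-5p, a miRNA of stratified and glandular epithelium, was at 34.1, 3.80 and 14.8 RPM in LF+Ex and 129.7, 127.7 and 52.5 RPM in HF+Ex. Its groups did not overlap but its libraries spread widely within each (log2 fold change 2.80, SE 0.70, adjusted p = 0.0266), and the call was kept in 1 of 6 fits that left out a library. The other 9 members, among them the miR-200 family and the miR-183 cluster of bile duct and other epithelia, were all below 0, and none was called. miR-96-5p had a value of -1.25 (adjusted p = 0.0984) and was called only on the rescaled values (adjusted p = 0.0478). The sum of the list was 5398, 2603 and 2367 RPM in LF+Ex and 2366, 2757 and 2458 RPM in HF+Ex, so that LF+Ex 1 stood out and the other libraries were close.

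**Figure D3:**
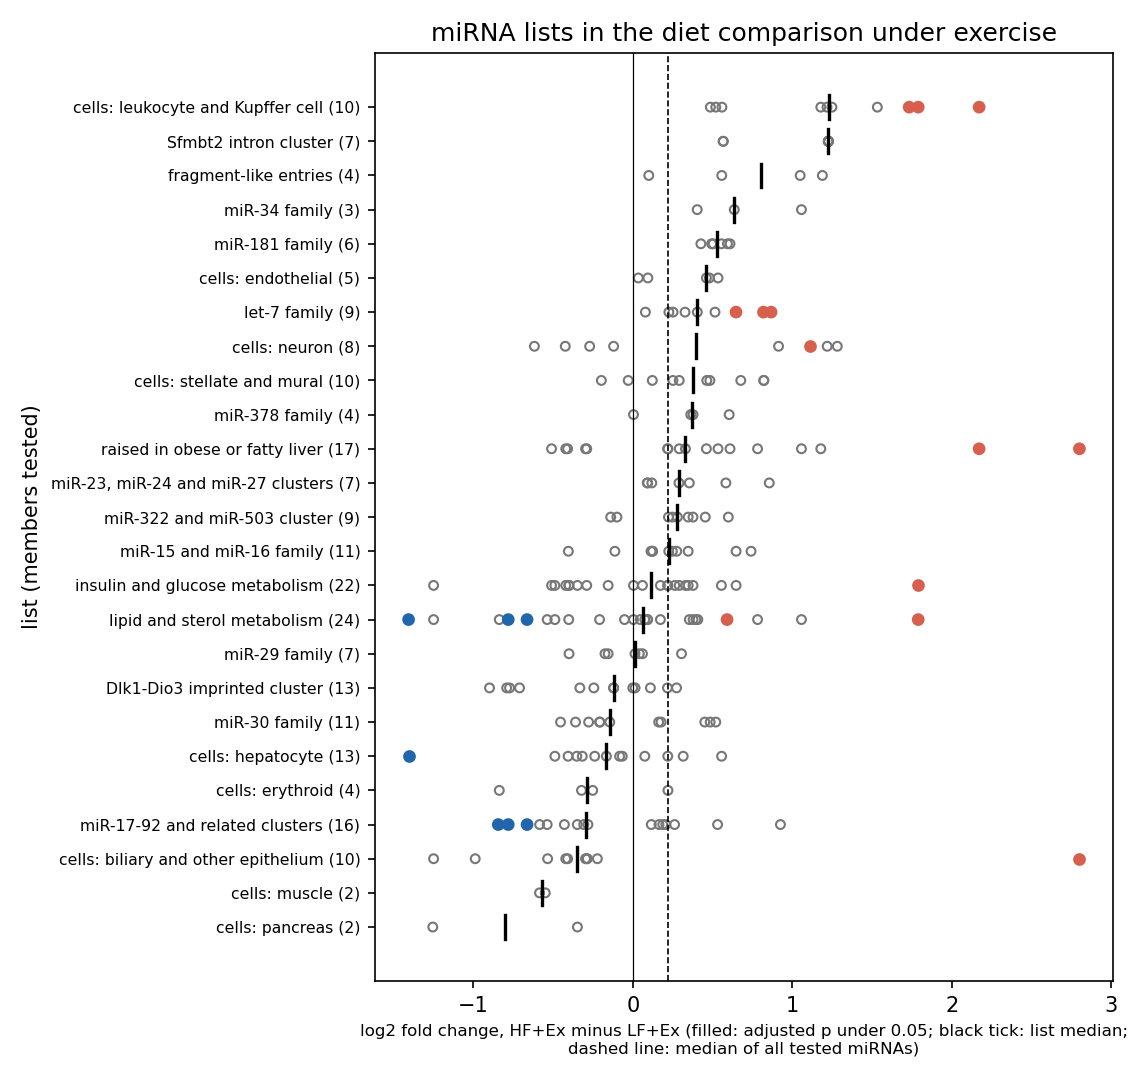
Log2 fold change, HF+Ex minus LF+Ex, of each tested member of 25 miRNA lists, 1 row per list with its number of members; filled points were called, open points were not, black ticks are list medians and the dashed line is the median of all miRNAs (0.22). The leukocyte row lies wholly to the right, with a median of 1.23, and the miR-17-92 row has 3 filled points to the left.

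The remaining higher miRNAs were of middling level. miR-149-5p, from an intron of Gpc1, was at 109.5, 105.9 and 213.5 RPM in LF+Ex and 405.7, 384.8 and 389.5 RPM in HF+Ex (1.53, SE 0.43, adjusted p = 0.0411). miR-501-3p and miR-501-5p, the 2 arms of a precursor in an intron of the chloride channel gene Clcn5, rose together. miR-501-3p was at 37.2, 42.3 and 45.9 RPM in LF+Ex and 90.2, 82.5 and 79.2 RPM in HF+Ex (0.99, adjusted p = 0.0419), and miR-501-5p had a value of 0.67 (adjusted p = 0.0380). miR-1198-5p, from an intron of Gripap1, was at 26.6, 21.1 and 30.2 RPM in LF+Ex and 57.3, 46.1 and 51.3 RPM in HF+Ex (0.97, SE 0.22, adjusted p = 0.0200). These groups did not overlap. Of the 6 fits that left out a library, miR-1198-5p was called in 2, miR-149-5p in 1 and the miR-501 arms in none.

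miR-129-5p, a miRNA known from neurons, was at 1.77, 1.48 and 2.89 RPM in LF+Ex and 6.91, 4.41 and 5.24 RPM in HF+Ex, which rest on between 13 and 47 reads (1.11, SE 0.31, adjusted p = 0.0419). It was the 1 called member of the neuronal list, in which 4 of 8 were above 0 and the sum was not higher in HF+Ex (385, 385 and 566 RPM in LF+Ex, 287, 328 and 379 RPM in HF+Ex). The rest of the 21 were miR-744-5p (0.77), miR-10a-5p (0.73), miR-425-3p (0.73), miR-1981-5p (0.66) and miR-128-3p (0.59), with adjusted p between 0.0331 and 0.0458. All 5 lost their call on rescaling. Of the 6 fits that left out a library, miR-129-5p and miR-744-5p were each called in 1 and the other 4 miRNAs of this paragraph that were called in none.

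Of 24 tested miRNAs known for acting on lipid and sterol genes, 14 were above 0 (8 after rescaling) and the median was 0.06. Of all 351, 66.7% were above 0 (173 miRNAs after rescaling) and the median was 0.22. On RPM 2 of the list were called higher and 3 lower, where 5.98% and 2.28% of all miRNAs were. After rescaling 1 was called higher and 5 lower, against 14 and 20 of all 351. Whether the list differs in this from all miRNAs was not tested. The list members called higher on RPM were miR-223-3p, which represses cholesterol uptake and synthesis genes, and miR-128-3p, a repressor of the low-density lipoprotein receptor. Those called lower on RPM were miR-148a-3p, miR-19b-3p and miR-20a-5p; the last 2 are known repressors of ABCA1. miR-33-5p, which lies in the sterol regulator gene Srebf2 (chr15:82198122-82198190) and represses ABCA1, was at 11.82, 12.7 and 12.99 RPM in LF+Ex and 11.79, 6.68 and 8.03 RPM in HF+Ex (-0.49, adjusted p = 0.228), so that the groups met without overlap. miR-34a-5p, a miRNA induced by p53 and raised in fatty liver, was at 1004, 1197 and 2484 RPM in LF+Ex and 2695, 3657 and 2732 RPM in HF+Ex (1.06, SE 0.50, adjusted p = 0.172). Its groups did not overlap, yet LF+Ex 3 came close to HF+Ex.

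In the list for insulin and glucose handling, 13 of 22 were above 0 (8 after rescaling), the median was 0.12 and only miR-223-3p was called. miR-103-3p and miR-107-3p, which reduce insulin sensitivity when raised in liver, had values of 0.22 and 0.33, and miR-802-5p of 0.22 (adjusted p = 0.596). In the list of miRNAs known to be raised in obese or fatty liver, 12 of 17 were above 0 (10 after rescaling), the median was 0.33, and miR-155-5p and miR-205-5p were called higher. Over all 351 miRNAs, 66.7% were above 0 (173 after rescaling), the median was 0.22 and 5.98% were called higher. Whether either list differs in this from all miRNAs was not tested. Among the 10 most abundant miRNAs of the 6 libraries let-7a-5p alone was called. miR-21a-5p, the second most abundant, was at 103666, 94599 and 111592 RPM in LF+Ex and 82284.5, 83313 and 55254 RPM in HF+Ex (-0.51, adjusted p = 0.172).

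Several families and clusters had a common sign but no call. Of all 351 miRNAs, 66.7% were above 0 on RPM, 173 were above 0 after rescaling, and 32.5% were higher without overlap. All 6 tested miR-181 miRNAs were above 0 on both scales, with a median of 0.53, and in each the HF+Ex libraries lay above the LF+Ex libraries. None of the 6 had an unadjusted limma p under 0.05. All 7 members of the miR-23, miR-24 and miR-27 clusters were above 0 (4 after rescaling, median 0.29). All 3 of the miR-34 family were above 0 on both scales (median 0.64). The miR-15 and miR-16 family (9 of 11 above 0, median 0.22), the miR-322 and miR-503 cluster (7 of 9, median 0.28) and the miR-378 family (4 of 4, median 0.37) lay close to the median of all miRNAs, with no call. The 7 members of the Sfmbt2 intron cluster were all above 0 (median 1.23), but identical values leave only 2 distinct measurements among them. The miR-29 family (4 of 7 above 0, median 0.01), the miR-30 family (5 of 11, median -0.15, with 2 called lower only after rescaling) and the imprinted Dlk1-Dio3 cluster (4 of 13, median -0.12) lay near or below 0.

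The same diet contrast was available without exercise. In HF against LF, 1 of 351 miRNAs was called (0.285%), and in HF+CR against LF+CR 37 were called (10.5%). Neither shares a library with the exercised comparison. None of the 29 miRNAs was called in HF against LF, where 18 of the 29 had the same sign (62.1%, against 58.4% of all 351), and in HF+CR against LF+CR 21 of the 29 had the same sign (72.4%, against 67.0% of all). Of the 29, 8 were also called with CR: let-7b-5p, let-7c-5p, miR-1198-5p and miR-425-3p were higher on the HF diet in both, while miR-17-5p, miR-20a-5p and both arms of miR-1948 were lower on it with exercise and higher on it with CR. The higher miRNAs kept their sign more often than the lower ones, but most of all 351 miRNAs were above 0 in these contrasts. Of the 21 higher ones 14 were also above 0 in HF against LF (66.7%, against 57.5% of all 351). In HF+CR against LF+CR 20 were above 0 (95.2%, against 78.6% of all). Of the 8 lower ones 4 were below 0 in HF against LF (50%, against 42.5% of all). In HF+CR against LF+CR 1, miR-130a-3p, was below 0 (12.5%, against 21.4% of all). Whether the called miRNAs differ in this from all miRNAs was not tested.

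For the leukocyte miRNAs, the diet difference was 1.79 with exercise, 0.47 without and 1.23 with CR for miR-223-3p, and 2.17, 1.47 and 1.08 in the same order for miR-155-5p. The median of the leukocyte list was 1.23, 0.68 and 1.03. The list sum varied widely within some of the groups behind the last 2 values. It was 8523, 2531 and 4015 RPM in LF and 6447, 8042 and 6287 RPM in HF, so LF 1 alone lay above every HF library. In HF+CR it was 5619, 3636 and 9774 RPM. For miR-205-5p the values were 2.80, 2.12 and 1.27. For let-7c-5p they were 0.82, 0.08 and 0.55. No difference between regimens was called for these 4 miRNAs singly. For the summed let-7 seed, the diet difference with exercise was above that without by 0.62 (adjusted p = 0.0347 over 231 seeds), and above that with CR by 0.35 (adjusted p = 0.190). This sum was tested on RPM alone, without rescaling and without leaving out libraries.

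**Figure D4:**
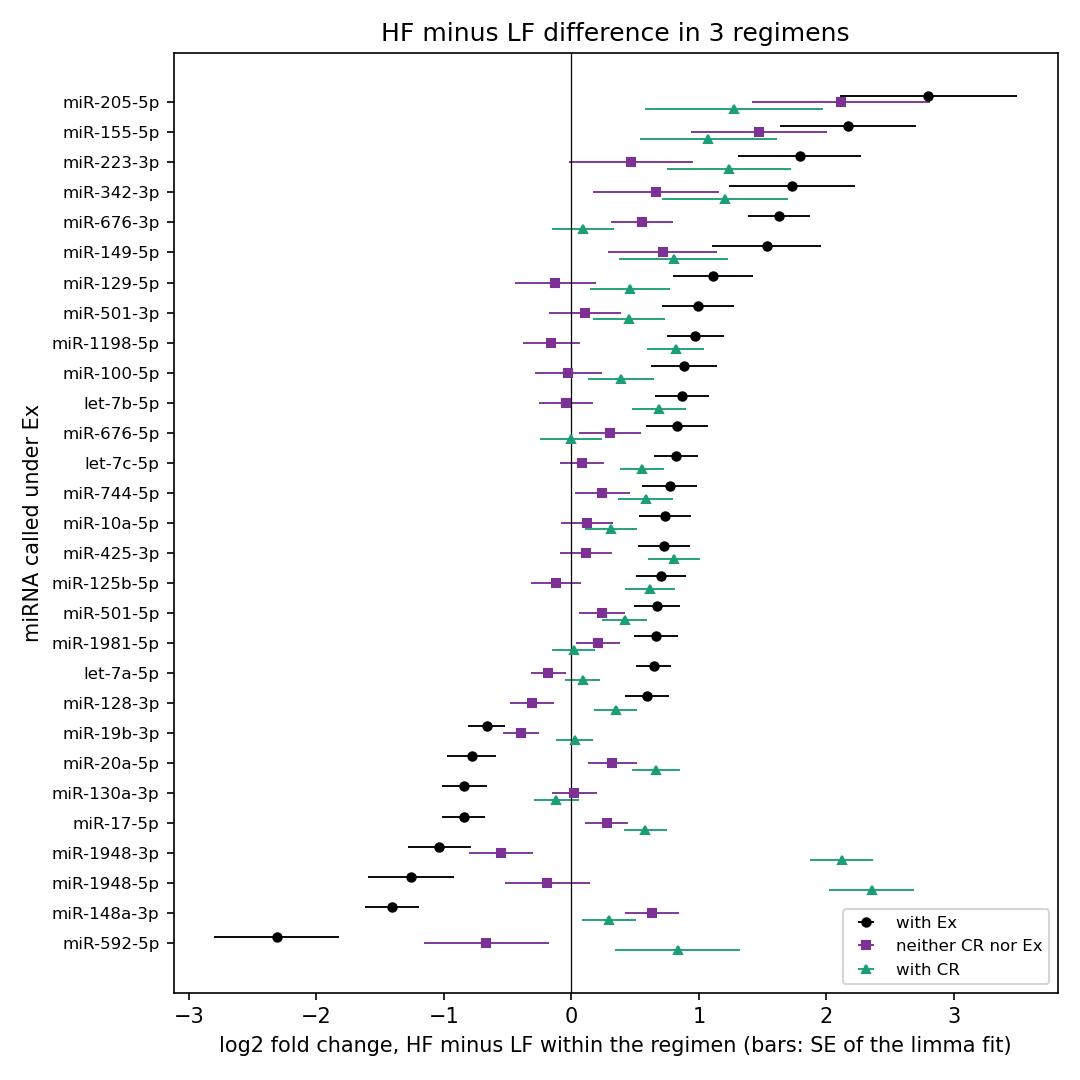
Log2 fold change of HF minus LF with its SE from the limma fit for the 29 called miRNAs, with exercise (circles), with neither CR nor Ex (squares) and with CR (triangles). The higher miRNAs mostly lie right of 0 under each regimen, while the 2 arms of miR-1948 lie left of 0 with exercise and right of 0 with CR.

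Whether the diet difference itself differed between exercised and unexercised mice was tested as (HF+Ex minus LF+Ex) minus (HF minus LF). It was called for 3 of 351 miRNAs (0.855%): miR-148a-3p, miR-33-5p and miR-17-5p. miR-148a-3p was at 15739, 18107 and 12748 RPM in LF and 28463, 20913 and 22733 RPM in HF, so it was higher on the HF diet in unexercised libraries (0.63, adjusted p = 0.307) and lower on it in exercised ones. The difference between the diet effects was -2.04 (SE 0.30, adjusted p = 0.00212). Over the 6 groups its highest mean was in LF+Ex and its lowest in HF+Ex.

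miR-33-5p was at 6.35, 5.14 and 5.57 RPM in LF and 13.2, 21.2 and 24.2 RPM in HF. The diet difference was 1.58 without exercise (adjusted p = 0.00715) and -0.49 with it, and the 2 differed by -2.07 (SE 0.37, adjusted p = 0.00824). miR-17-5p was at 104.2, 81.9 and 80.0 RPM in LF and 105.9, 116.8 and 99.0 RPM in HF, and its diet differences, 0.28 and -0.84, differed by -1.12 (SE 0.24, adjusted p = 0.0286). The results for miR-148a-3p and miR-33-5p were kept in every alternative in which they were tested, and that for miR-17-5p in 2 of the 12 fits that left out a library. The next by p were let-7a-5p (0.83, adjusted p = 0.0532) and miR-20a-5p (-1.10, adjusted p = 0.0621), which were not called.

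Against CR, 10 of 351 miRNAs were called for a difference in the diet effect (2.85%), 8 lower and 2 higher with exercise. The largest belonged to the miR-1948 arms. miR-1948-3p was at 13.1, 19.4 and 19.0 RPM in LF+CR and 89.7, 86.7 and 58.2 RPM in HF+CR. It was thus higher on the HF diet with CR (2.12) and lower on it with exercise (-1.04), and the 2 differed by -3.15 (SE 0.35, adjusted p = 5.74e-05). The value for miR-1948-5p was -3.61 (SE 0.47, adjusted p = 0.000225).

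miR-148a-3p (-1.70), miR-17-5p (-1.42), miR-20a-5p (-1.44) and miR-592-5p (-3.14) were also lower in the exercised diet contrast than in the CR contrast, with adjusted p between 0.00246 and 0.0172, and miR-676-3p was higher (1.54, adjusted p = 0.0172). The calls of miR-592-5p and miR-676-3p were kept in 7 and 8 of the 12 fits that left out a library. miR-676-3p was at 61.3, 98.0 and 73.6 RPM in LF+CR and 86.6, 68.6 and 90.6 RPM in HF+CR, where the groups overlapped. The other 3, miR-671-5p (-1.002), miR-1968-5p (-1.32) and miR-802-3p (1.58), were not called in HF+Ex against LF+Ex.

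**Figure D5:**
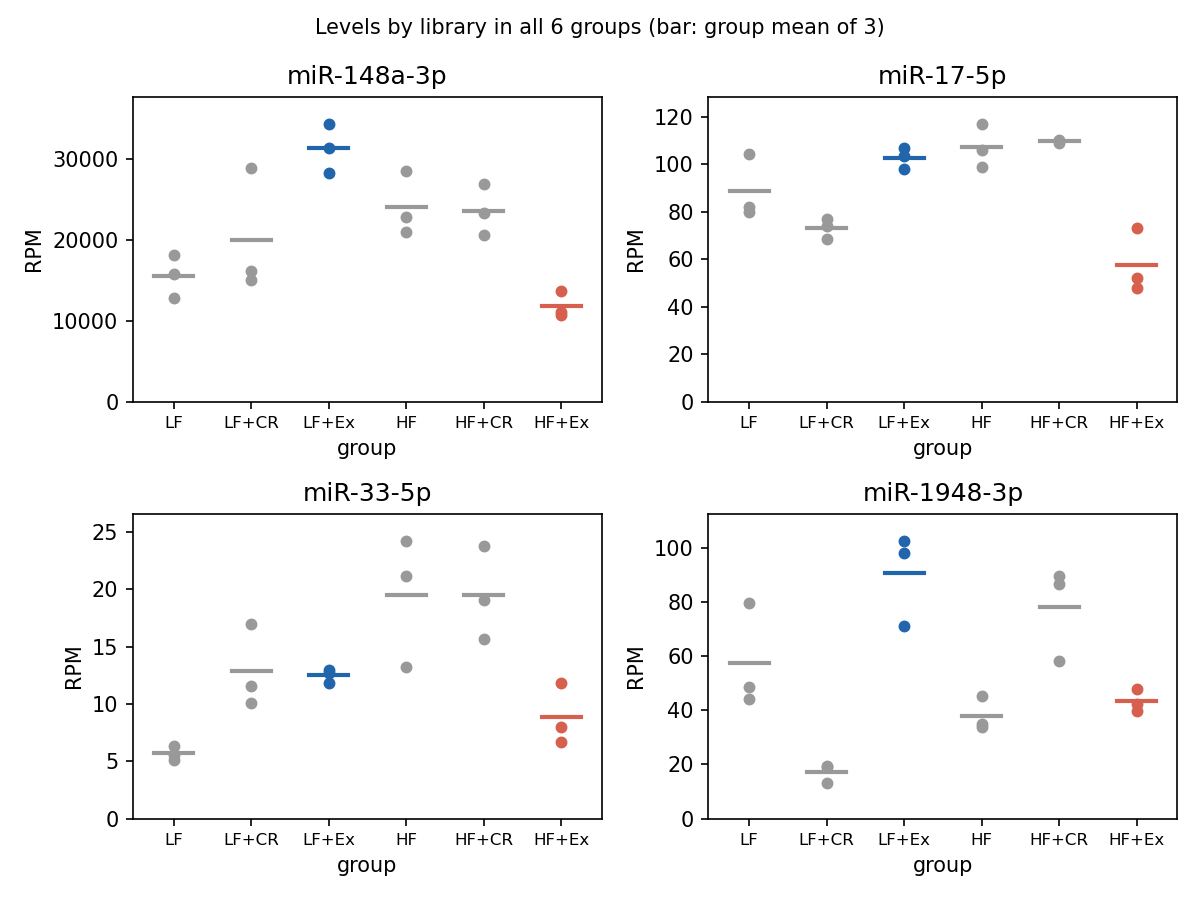
RPM of 4 miRNAs in each library of the 6 groups; points are libraries, bars are means of 3, with LF+Ex in blue and HF+Ex in orange. miR-148a-3p has its highest mean in LF+Ex and its lowest in HF+Ex, miR-17-5p has its lowest mean in HF+Ex, miR-33-5p its lowest in LF, and miR-1948-3p its lowest in LF+CR.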

How the data were processed

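Per the labels' protocols, RNA was taken from frozen liver with Trizol and its small RNA fraction went into Illumina libraries. The deposited values are RPM per mature miRNA, scaled by the authors to the library total, per the file headers. The submitters' processing notes name mm10 as build. The aligner, counting tool and miRNA annotation were not given in the sources used here. Per-sample and series tables differed by 0 RPM. Each library's values were whole multiples (100%, tolerance 0.001 reads) of a step taken as 1 read. The smallest listed value was 2 reads, so a listed 0 may be 0 reads or 1 read. Reads carry no molecular identifiers.

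Tests used limma 3.58.1 in R 4.3.3 on log2(RPM + 1), which understates changes of low miRNAs, with 1 coefficient per group over all 18 libraries, eBayes with an intensity trend, two-sided, and Benjamini-Hochberg adjustment over 351 miRNAs. Lists are given by counts and medians, without set tests. Precursor positions are GRCm38.p6, the same build as mm10, with hosts from GENCODE. Alternatives were another pseudocount, 2 filters, rescaling, no trend, voom weights, identical miRNAs counted once, a block, fewer groups, and leaving out libraries. Figures used matplotlib 3.10.9 in Python 3.11.15. Groups came from the sample titles. Members, lists and tests were chosen with earlier results of these data known. The rule for names took, per comparison, the called miRNAs with the 12 largest changes each way, members of the lists and the 10 most abundant; miR-10a-5p, miR-125b-5p, miR-425-3p, miR-501-5p, miR-744-5p and miR-1981-5p were named beyond it, after their values were seen, to complete the called set, as were miR-99a-5p and the members of called seeds.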

Additional observations from a re-analysis of the deposited data

Results flagged for a closer look

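These results stand out because the difference between diets was itself different under another regimen, by a limma test of the difference with adjustment over 351 miRNAs. Against mice with neither CR nor Ex, the diet difference with exercise was lower by 2.04 (a value of -2.04) for miR-148a-3p, -1.12 for miR-17-5p and -2.07 for miR-33-5p on the log2 scale. Against CR, it was -1.70 for miR-148a-3p, -1.42 for miR-17-5p, -1.44 for miR-20a-5p, -3.15 for miR-1948-3p, -3.61 for miR-1948-5p, -3.14 for miR-592-5p, -1.32 for miR-1968-5p (adjusted p = 0.0251), -1.002 for miR-671-5p (adjusted p = 0.0172), 1.54 for miR-676-3p and 1.58 for miR-802-3p (adjusted p = 0.0479). Some of these calls were less firm. Of the 12 fits against CR that left out a library, miR-802-3p was called in 3, miR-1968-5p in 5, miR-592-5p in 7 and miR-676-3p in 8. The calls of miR-671-5p and miR-1968-5p were lost on rescaling.

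For the last miRNAs not described so far, miR-671-5p was at 95.1, 91.7 and 105.4 RPM in LF+Ex and 128.0, 123.6 and 122.1 RPM in HF+Ex, against 53.5, 57.0 and 62.6 RPM in LF+CR and 182.1, 136.4 and 133.4 RPM in HF+CR. In both regimens every HF library lay above every LF library of that regimen, as 32.5% of all miRNAs did with exercise. The log2 fold change was 0.35 with exercise and 1.36 with CR. miR-802-3p was at 131.1, 185.3 and 246.2 RPM in LF+Ex and 252.0, 207.5 and 221.3 RPM in HF+Ex, which overlapped, and was lower on the HF diet with CR (-1.26, adjusted p = 0.0191). miR-1968-5p lay between 3.99 and 13.4 RPM in the LF+CR, HF+CR, LF+Ex and HF+Ex libraries.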

How the results depend on the processing

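Without a filter on low values 18 miRNAs were called in HF+Ex against LF+Ex, with only the compared groups in the fit 59, and without LF 1 and HF+CR 3, 2 libraries of other groups chosen after seeing the data, 80, which included all 29. Leaving out each library in turn gave between 2 (HF+Ex 3) and 16 calls (LF+Ex 3), with 3 without LF+Ex 1, 7 without HF+Ex 1, 9 without HF+Ex 2 and 11 without LF+Ex 2. The difference from the unexercised diet contrast was called for 5 miRNAs without a filter, 8 after rescaling and 6 without the pair, and for 2 to 4 without 1 library. The difference from the CR contrast was called for 39 without the pair and for 6 (LF+Ex 1 or LF+Ex 2) to 25 (HF+CR 3) without 1 library, with 16 without HF+Ex 1 and 18 without LF+CR 3. Why was not tested beyond the smaller or larger set of libraries or miRNAs. None of the 29 changed sign in any alternative. With the replicate number as a block 36, 3 and 10 miRNAs were called in the 3 tests. Same-numbered libraries correlated at 0.117, -0.0242 and 0.0750 in their deviations, and differently numbered ones at between -0.249 and 0.212. With so few libraries this cannot decide whether the numbers pair samples, and no label says that they do. Planned count-model tests were not run. Voom weights on the reads recovered from RPM were used instead, where a listed 0 may be 0 reads or 1 read. HF+Ex 1 had the fewest reads, 2.38 M.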

Other observations

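Both arms of miR-582 had large values that missed the threshold. miR-582-5p was at 13.7, 28.1 and 163.2 RPM in LF+Ex and 266.3, 367.1 and 268.6 RPM in HF+Ex (log2 fold change 2.85, SE 1.09, adjusted p = 0.0984), and miR-582-3p had a value of 2.72 (adjusted p = 0.0697). The groups did not overlap, but the LF+Ex libraries spread more than 10-fold. miR-210-3p, the miRNA induced by low oxygen, was at 312.5, 210.6 and 189.6 RPM in LF+Ex and 411.8, 355.7 and 419.1 RPM in HF+Ex (0.76, SE 0.24, adjusted p = 0.0525). The miR-132 and miR-212 cluster, known from neurons and immune cells, had values of 1.24 for miR-132-5p (adjusted p = 0.0556), 1.22 for miR-212-3p and 0.91 for miR-132-3p. These were chosen after their values were seen.

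The seeds of 5 of the 6 matched miRNAs called lower hold the letters GUGC, read 5′ to 3′ on the miRNA only: those of miR-148a-3p, miR-17-5p, miR-20a-5p, miR-19b-3p and miR-130a-3p. Of the 288 tested miRNAs with a sequence, 19 have these letters in the seed (6.60%), and none of the 20 matched miRNAs called higher does. Of the 19, 11 had a value below 0, as did 33.3% of all 351 miRNAs. The 19 ranged from -1.41 to 1.22 with a median of -0.31, against 0.22 for the others. The 5 called lower, from which the letters were taken, are among the 19. The count below 0 and the lower median are thus built in to an unmeasured degree. Neither was computed without those 5, so no trend in the rest can be read from them. The letters were chosen after the values were seen, and miR-17-5p and miR-20a-5p share a seed and a transcript, so this is a description of these miRNAs.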
